A study of Mus musculus with 12 samples.

Results

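The mitochondrial ribosome is built from nuclear-encoded proteins whose genes carry the symbols Mrpl (large subunit) and Mrps (small subunit), followed by a number. They were examined here in wild-type mouse bone marrow-derived macrophages, the macrophages grown in culture from marrow cells, by poly(A) RNA sequencing. Every gene whose symbol starts with Mrpl or Mrps and a digit was taken, leaving out pseudogene symbols, if it reached at least 1 CPM (counts scaled to library size) in at least 3 libraries. This gave 78 genes of 32285 in the count table, 49 Mrpl and 29 Mrps. All 78 genes with such a symbol met the CPM rule and passed the filter on low counts, so no member was lost on the way to the 14113 genes tested. The rule used the gene name and presence only, not any response.

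The 12 libraries form 4 groups of 3 biological replicates. Macrophages received itaconic acid (IA), methylsuccinic acid (MetSA) or malonic acid (MA), each at 5 mM diluted from a 50 mM stock for 16 h, or medium alone (M). IA and MetSA share a carbon skeleton, and MetSA is the saturated counterpart of IA, while MA is a shorter dicarboxylic acid. The labels do not say whether replicates came from separate animals, so p-values measure the spread between these samples, which may be technical.

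Mitochondrial ribosomes translate only the mRNAs made inside the organelle, which code for subunits of the respiratory chain and of ATP synthase. Their RNA comes from the mitochondrial genome, but every protein is made in the cytosol and imported, so assembly depends on output from the nucleus. The particle has fewer RNA segments and more proteins than its bacterial relative, and many of its proteins have no bacterial counterpart. By known structure, 51 members belong to the large subunit and 26 to the small subunit. Of these, 31 large-subunit and 17 small-subunit members are related to a bacterial ribosomal protein. The products of Mrps30 and Mrps18a sit in the large subunit despite their names. Mrps36 is counted with neither, because its product is now regarded as a component of the oxoglutarate dehydrogenase complex.

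Promoters of these genes are known for binding sites of NRF1 (nuclear respiratory factor 1, the product of Nrf1), of ETS-family factors such as GABP, and of YY1. RefSeq promoter windows on GRCm38.p6, from 250 bases before the start to 50 after it, matched 69 of the 78 members and gave 75 windows. The NRF1 letters, GCGCA, then any base, then GCGC, stood on either strand in 17.3% of the 75 member windows and in 4.60% of all 32851 windows. The ETS letters CCGGAAG stood in 34.7% of member windows and 8.86% of all windows, and the YY1 letters AAGATGGCG in 10.7% and 1.40%. The E-box CACGTG was found in 9.33% of member windows and 7.15% of all windows, and TATAAA in 6.67% and 13.6%. The median GC content was 58.7% in member windows and 52.7% in all windows. A match of letters is a description and not a binding site. Shown here are the 150 bases before the RefSeq start for 3 of the 5 members higher with IA than with M and for the stalk gene Mrpl12, which was lower. Capitals mark the motif that the search found.
Mrpl1, chr5:96209965-96210114, plus strand: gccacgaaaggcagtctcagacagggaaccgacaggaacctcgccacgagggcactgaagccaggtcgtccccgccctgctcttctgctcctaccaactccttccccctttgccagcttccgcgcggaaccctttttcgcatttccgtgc
Mrpl44, chr1:79775868-79776017, plus strand: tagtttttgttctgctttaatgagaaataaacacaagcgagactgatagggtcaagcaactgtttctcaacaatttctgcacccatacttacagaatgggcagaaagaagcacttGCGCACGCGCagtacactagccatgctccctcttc
Mrpl27, chr11:94653641-94653790, plus strand: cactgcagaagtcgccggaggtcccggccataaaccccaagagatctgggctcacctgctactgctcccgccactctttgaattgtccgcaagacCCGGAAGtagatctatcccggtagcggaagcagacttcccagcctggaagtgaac
Mrpl12, chr11:120484487-120484636, plus strand: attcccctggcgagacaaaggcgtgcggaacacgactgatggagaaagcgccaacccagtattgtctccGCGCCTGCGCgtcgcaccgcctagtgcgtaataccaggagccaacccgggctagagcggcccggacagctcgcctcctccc
The NRF1 letters lie at bases -35 to -26 from the start in Mrpl44 and at -81 to -72 in Mrpl12, and the ETS letters at -55 to -49 in Mrpl27. None of the 5 motifs is in the stretch of Mrpl1, whose RefSeq start lies 622 bases downstream of the GENCODE M21 gene start. A protein-coding neighbour on the opposite strand that starts within 1000 bases upstream was annotated for 18 of 78 members (23.1%), against 1451 of 21702 protein-coding genes (6.69%). Opposite genes whose starts overlap, such as Mrpl46 and Mrps11, are not in this count. Mrps12, for example, starts 172 bases from Sars2, the mitochondrial seryl-tRNA synthetase gene, and Mrpl49 starts 59 bases from Fau, a gene for a ribosomal protein of the cytosol.

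Library totals ran from 46892488 to 54252486 counts, and member genes drew between 93 and 2317 counts per gene and library. Markers of the labelled cell type were abundant: the summed level of 8 macrophage genes was 25348 to 28127 CPM in IA, 26692 to 33230 in MetSA, 28518 to 30587 in MA and 24578 to 26872 in M. Neutrophil, stromal, mast cell, erythroid and lymphocyte lists stayed at or under 37.6 CPM in every library, with 3 of 6 lymphocyte markers at 0 throughout. A list of 4 endothelial markers summed to 42.1 to 46.6 CPM in IA, 23.9 to 36.9 in MetSA, 8.22 to 10.4 in MA and 8.02 to 9.39 in M. The 5 dendritic cell markers summed to 7.13 to 8.71 CPM in IA, 3.64 to 5.35 in MetSA, 2.69 to 3.34 in MA and 1.98 to 3.08 in M. Of these CPM, Xcr1 gave 4.56 to 5.08 in IA, 1.74 to 2.33 in MetSA, 0.317 to 0.551 in MA and 0.161 to 0.267 in M. Siglech was also higher in all IA than in all M libraries, while Flt3, Zbtb46 and Clec9a overlapped between IA and M. The part of either list in the results on mitochondrial ribosomal genes was not tested. MetSA replicate 3 stood apart from the rest of its group: mitochondrially encoded genes took 1.28% of its counts, against 0.759% and 0.833% in MetSA replicates 1 and 2, and counts of calls for MetSA against M are therefore given with and without it.

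As a class, mitochondrial ribosomal transcripts kept similar summed levels with each of the 3 acids and with medium. After TMM scaling of library sizes, the summed level of the 78 members was 1163, 1183 and 1192 CPM in IA, 1290, 1207 and 1192 CPM in MetSA, 1164, 1152 and 1239 CPM in MA, and 1152, 1194 and 1263 CPM in M. The IA libraries lay just under all MetSA libraries, every other pair of groups overlapped, and the IA libraries were the closest together. The large-subunit sum was 824 to 844 CPM in IA, 842 to 906 in MetSA, 803 to 875 in MA and 805 to 885 in M. The small-subunit sum was 334 to 342 CPM in IA, 343 to 376 in MetSA, 337 to 358 in MA and 341 to 371 in M, again with IA under MetSA by a narrow gap. In unscaled terms the members took 0.109% to 0.110% of all counts in IA, 0.117% to 0.125% in MetSA, 0.119% to 0.128% in MA and 0.122% to 0.136% in M, so that the IA libraries were the lowest on that scale without overlap. The TMM factors, which set the scale for all genes alike, were 0.927 to 0.935 in IA, 0.970 to 0.985 in MetSA, 1.02 to 1.05 in MA and 1.05 to 1.07 in M. In bulk RNA, fewer cells of a type and less RNA per cell cannot be told apart.

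**Figure D1:**
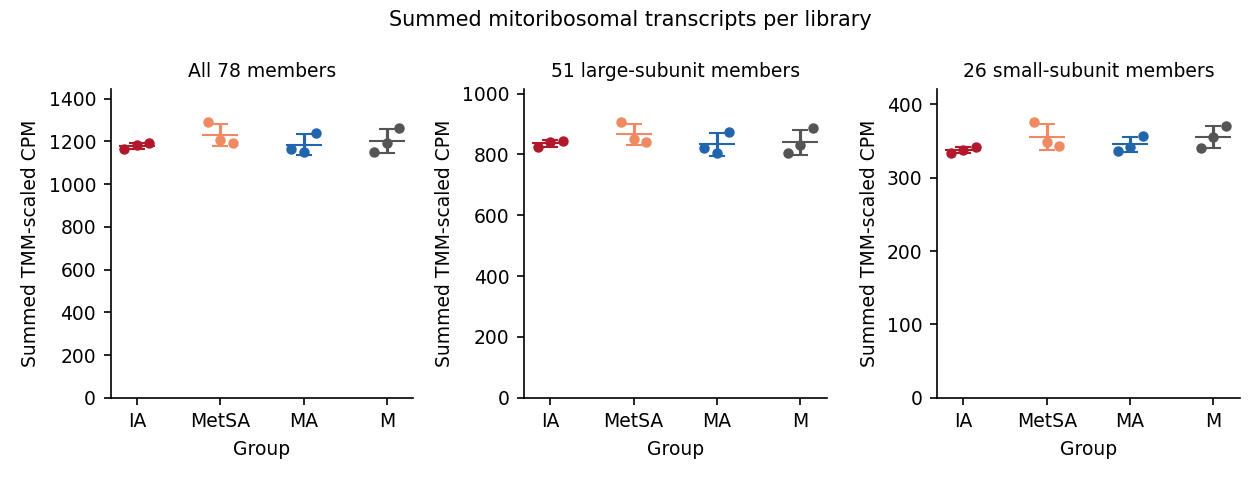
Summed TMM-scaled CPM (y axis) of all 78 members, of the 51 large-subunit members and of the 26 small-subunit members in each library of the IA, MetSA, MA and M groups. Points are libraries, wide marks are means and error bars are SDs (n = 3); the IA, MA and M ranges overlap in each panel, IA lies just under MetSA for all members and for the small subunit, and MetSA replicate 1 is the highest library at 1290 CPM over all members.

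Levels differed widely between members. Per kilobase of the principal transcript, the level in M had a median of 9.83 CPM per kb over the 78 members. The highest were Mrpl33 at 35.6, Mrps21 at 28.3 and Mrpl24 at 27.8 CPM per kb, whose products are related to the bacterial proteins L33, S21 and L24. The lowest were Mrps25, a small-subunit protein with no bacterial counterpart, at 2.27 CPM per kb, Mrpl47 at 2.48 and Mrpl17 at 2.56. Other genes overlap 26.3% of the exon bases of Mrpl24 and 69.8% of those of Mrps25. Of the sequence of Mrpl47, 20.2% is shared with other genes over stretches of 100 bases, so the levels of Mrpl24, Mrps25 and Mrpl47 are uncertain. The order depends on the transcript chosen, since Mrpl33 ranked 70 of 78 when the length of all its annotated exons was used instead. Of the variance of log2 CPM among the 12 libraries, the median share that lay between groups was 40.1% for members and 58.2% for all genes tested.

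Of the 3 acids, IA gave the most called members against M. A call means that the p of edgeR's quasi-likelihood test, after Benjamini-Hochberg adjustment over all genes tested, was under 0.05. With IA, 14 of 78 members were called (17.9%), 5 higher and 9 lower, where 35.2% of all genes were called, 17.9% higher and 17.3% lower. The median log2 fold change was -0.10 over members and -0.03 over all genes. No member reached a change of 2-fold, which 11.0% of all genes did, called or not. Of these 1552 genes, 1127 were also called. The 95% interval of the fold change lay within 1.5-fold in either direction for 64 of 78 members. Large-subunit members gave 4 calls higher and 5 lower of 51, and small-subunit members 1 higher and 4 lower of 26. Relatives of bacterial proteins gave 4 higher and 5 lower of 48, and the other members 1 higher and 4 lower of 30. Leaving out M replicate 2 left 6 calls and leaving out IA replicate 3 left 8, while leaving out IA replicate 1, IA replicate 2 or M replicate 3 left 9 each. In these omissions 28.1% to 30.8% of all genes were called. The split between directions depended on scaling: 7 higher and 6 lower with DESeq2's size factors, 1 and 19 with upper-quartile scaling, and 1 and 40 with no scaling beyond library totals, when the median of all genes was -0.01, -0.12 and -0.22. The share of members called was then 16.7%, 25.6% and 52.6%, against 35.2%, 39.0% and 48.4% of all genes, so that with no scaling the member share was above that of all genes. Removing a length trend from each library also changed the split, to 9 higher and 7 lower.

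**Figure D2:**
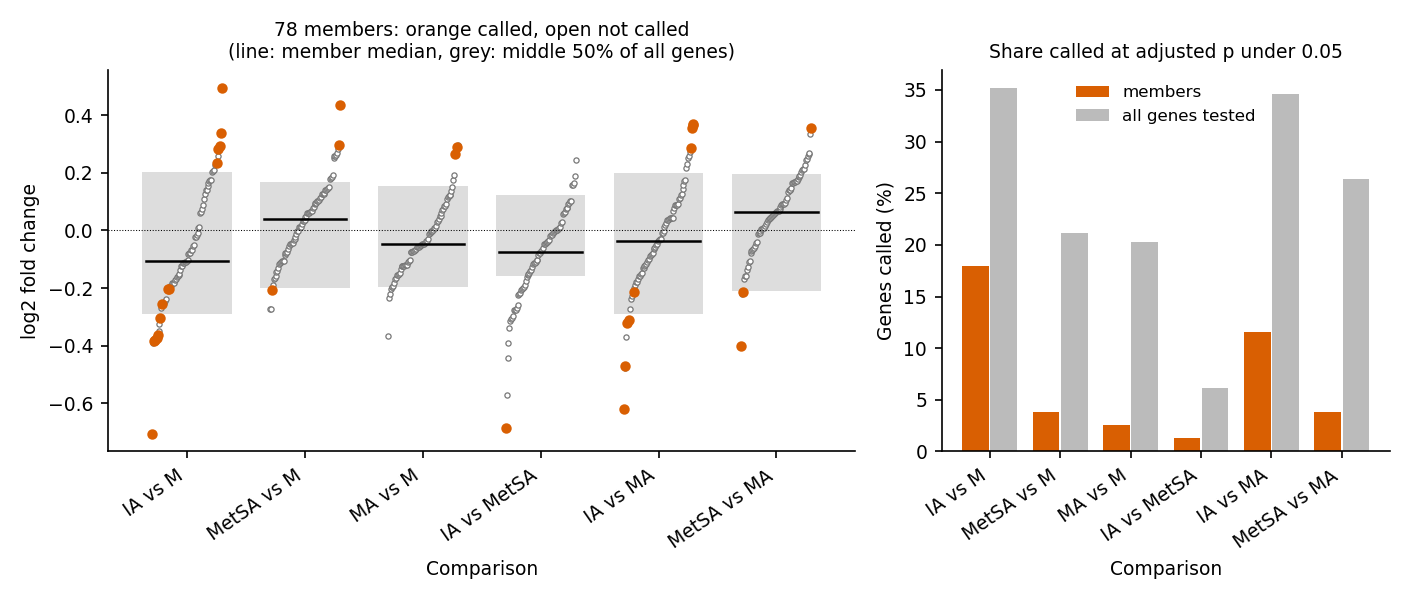
Left, log2 fold change (y axis) of each of the 78 members in the 6 comparisons, with called members in orange, the member median as a black line and the middle 50% of all genes tested as a grey band. Right, the share of genes called (%), members in orange and all genes in grey; with TMM scaling the member share is below the share of all genes in each comparison, for example 17.9% against 35.2% in IA vs M.

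Mrpl1 codes for the relative of bacterial L1, which forms the mobile stalk beside the exit site for spent tRNA. It lies at chr5:96209493-96266727 (mm10, plus strand; ENSMUSG00000029486). Its level was 28.5, 25.7 and 27.4 CPM in IA, 23.3, 22 and 23.7 CPM in MetSA, 20.9, 22.7 and 25.9 CPM in MA, and 18.8, 21.4 and 17.7 CPM in M. All IA and MetSA libraries lay above all M libraries, and MA overlapped M by its lowest library. The rise of Mrpl1 with IA was 0.50 on the log2 scale (SE 0.09, adjusted p = 0.000276) and that with MA 0.27 (adjusted p = 0.0466), whereas the MetSA value of 0.25 missed the threshold (adjusted p = 0.058). The IA call held in each of the 22 alternatives to the main test, with log2 fold changes from 0.31 to 0.58. The MA call was lost without M replicate 1 (0.25), M replicate 3 (0.21), MA replicate 2 (0.28), MA replicate 3 (0.18) and, at 0.27, without either of IA replicates 1 and 2 or MetSA replicates 1 and 2. It was also lost with upper-quartile scaling, with no scaling and in a fit of only the groups compared. IA against MetSA gave 0.24 for Mrpl1, with a 95% interval of 0.05 to 0.43 and an adjusted p of 0.12.

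Mrpl44 codes for a large-subunit protein with a fold like that of an RNA-cutting enzyme and no bacterial ribosomal counterpart (chr1:79776018-79781445, plus strand; ENSMUSG00000026248). It had 25.9, 25.4 and 24.2 CPM in IA, 24.1, 23.7 and 19.6 in MetSA, 17.5, 20.2 and 20.9 in MA, and 21.1, 20.3 and 20.3 in M. IA did not overlap MA or M. The log2 fold change was 0.29 for IA against M (SE 0.09, adjusted p = 0.0163) and 0.37 for IA against MA (SE 0.09, adjusted p = 0.00342). The first call was lost without IA replicate 1 (0.27, adjusted p = 0.0557). Wdfy1, on the opposite strand, shares 7.66% of the exon bases of Mrpl44 and rose with IA by a log2 fold change of 1.10; whether shared reads contribute was not tested, as the counting is not stated to use strand.

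Mrpl27, Mrps2 and Mrpl30 completed the members higher with IA. The product of Mrpl27 is related to bacterial L27, which lies near the site of peptide bond formation (chr11:94653767-94660089, plus strand; ENSMUSG00000024414). Mrpl27 had 18.5, 20.5 and 25.2 CPM in IA, 22.3, 22.1 and 19.8 in MetSA, 15.4, 16.7 and 18.2 in MA, and 17.3, 16.6 and 18.9 in M. The IA and MetSA libraries lay above all MA libraries, and IA overlapped M. The log2 fold change of Mrpl27 was 0.28 for IA against M (adjusted p = 0.0427), 0.36 for IA against MA (adjusted p = 0.0128) and 0.35 for MetSA against MA (adjusted p = 0.0166). The call against M was lost without M replicate 1 (0.27), M replicate 2 (0.24), IA replicate 2 (0.32), IA replicate 3 (0.18) and MA replicate 2 (0.28). Of its sequence, 12.6% is shared with another annotated gene over stretches of 100 bases. Mrps2, for the relative of bacterial S2, averaged 28.9 ± 1.7 CPM in IA and 24.5 ± 1.6 CPM in M (SD, n = 3 each), a log2 fold change of 0.23 (adjusted p = 0.0276). That call was lost without IA replicate 1 (0.21), IA replicate 3 (0.24), M replicate 2 (0.22) or M replicate 3 (0.20). Mrpl30, for the relative of L30, averaged 23.7 ± 1.4 CPM in IA and 18.8 ± 2.2 CPM in M, a log2 fold change of 0.34 (adjusted p = 0.0393), and was lost without M replicate 1 (0.26), M replicate 2 (0.34), IA replicate 2 (0.31) or IA replicate 3 (0.35). The calls of Mrpl44, Mrpl27, Mrps2 and Mrpl30 against M also ended with upper-quartile scaling and with no scaling beyond library totals, and that of Mrpl1 did not. With the replicate number as a block, Mrpl30 lost its call. Against MA, the calls of Mrpl44 and Mrpl27 ended with no scaling, and that of Mrpl27 without MA replicate 1 (0.30) or IA replicate 3 (0.24).

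**Figure D3:**
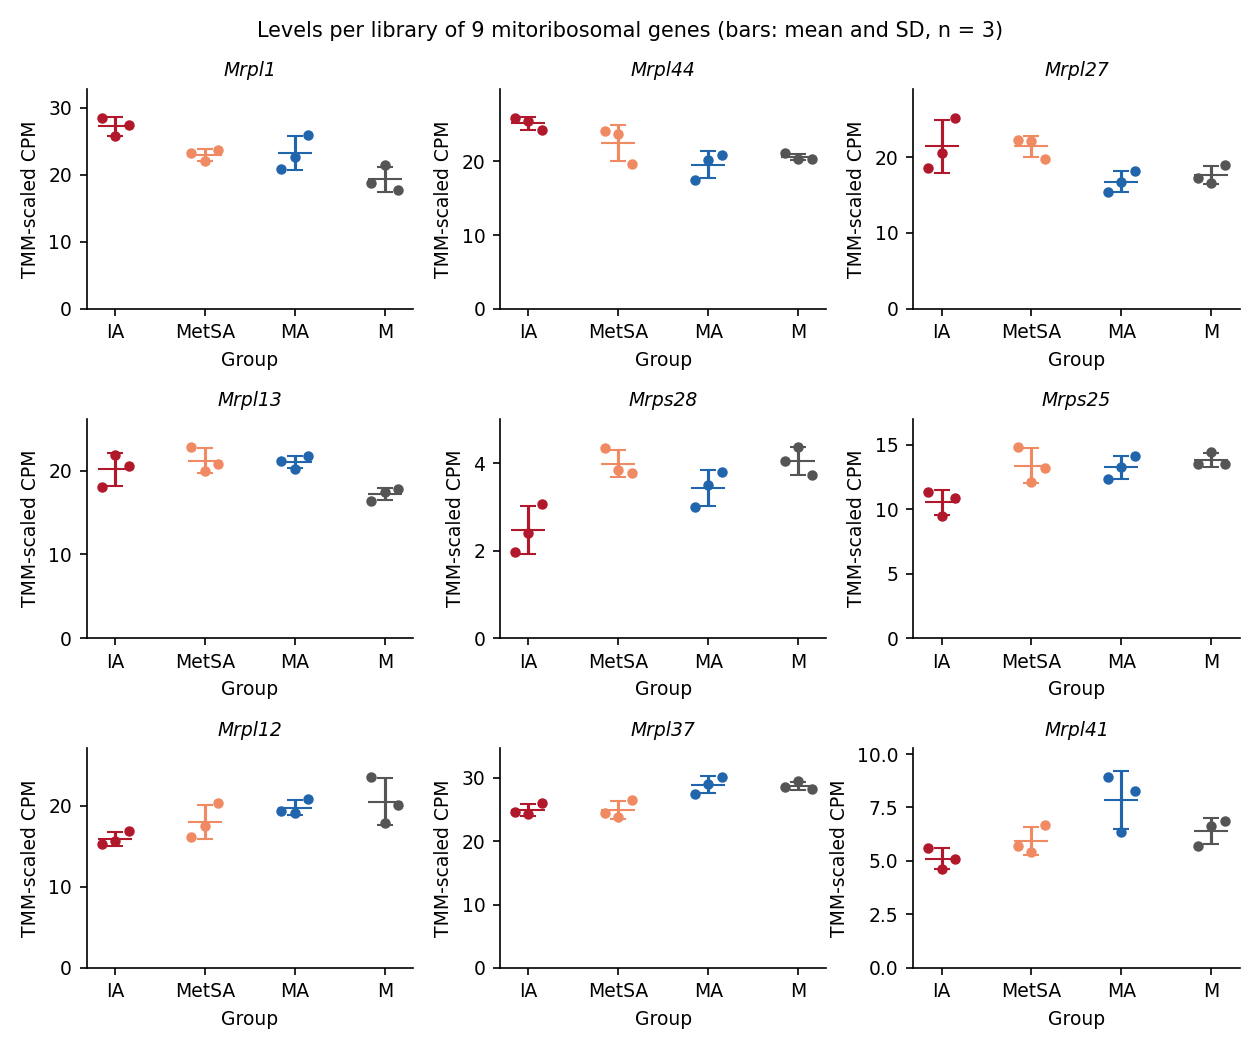
TMM-scaled CPM (y axis, from 0) in each library of the IA, MetSA, MA and M groups for 9 members. Points are libraries and bars are the mean and SD (n = 3); Mrpl1 and Mrpl44 are highest in IA, at 27.2 and 25.2 CPM on average, Mrps28 and Mrps25 are lowest in IA, at 2.48 and 10.6 CPM, and Mrpl41 is highest in MA, at 7.85 CPM.

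Among the members lower with IA, Mrps28 had the largest log2 fold change. Its product is the mitochondrial relative of bacterial S1, and the gene lies at chr3:8802146-8923918 (minus strand; ENSMUSG00000040269). It was also among the least abundant members, with 93 to 236 counts per library, and is named after its values were seen. Mrps28 had 1.98, 2.40 and 3.06 CPM in IA, 4.34, 3.85 and 3.77 in MetSA, 3.00, 3.51 and 3.81 in MA, and 4.05, 4.37 and 3.73 in M. All IA libraries lay below all MetSA and M libraries. The log2 fold change of Mrps28 was -0.71 for IA against M (SE 0.18, adjusted p = 0.00439), a call that held in each of the 22 alternatives, and -0.68 for IA against MetSA (adjusted p = 0.0287). IA against MA gave -0.47 (adjusted p = 0.0492), with overlapping groups. Neither comparison between compounds was stable: IA against MetSA lost its call in a fit of only the groups compared and without IA replicate 1 (-0.55), IA replicate 2 (-0.66), MetSA replicate 1 (-0.62) or MetSA replicate 2 (-0.70), and IA against MA kept it only without IA replicate 3, MA replicate 1 or MetSA replicate 3, with values of -0.34 to -0.47 in the other omissions. IA against MA also lost it with DESeq2's size factors, with no filter on low counts, in a fit of only the groups compared and with the length trend removed.

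Mrps25 and Mrps26 code for small-subunit proteins without bacterial counterparts. Mrps25 had 11.3, 9.46 and 10.9 CPM in IA, 14.8, 12.1 and 13.2 in MetSA, 12.3, 13.3 and 14.1 in MA, and 13.5, 14.4 and 13.5 in M, so that the IA libraries lay below all others. Its log2 fold change was -0.38 for IA against M (SE 0.10, adjusted p = 0.00718) and -0.32 for IA against MA (adjusted p = 0.0206). The call against M held in each of the 22 alternatives, and that against MA was lost without IA replicate 2 (-0.25), MA replicate 2 (-0.32) or MA replicate 3 (-0.28). Of the exon bases of Mrps25, 69.8% overlap Nr2c2 on the opposite strand, so its counts are uncertain. Nr2c2 itself had a log2 fold change of 0.14 with IA (adjusted p = 0.429). Mrps26 averaged 8.49 ± 0.67 CPM in IA and 11.0 ± 1.3 CPM in M, a log2 fold change of -0.37 (adjusted p = 0.0245), which was lost without IA replicate 1 (-0.35), IA replicate 2 (-0.34) or M replicate 3 (-0.27).

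In the large subunit, Mrpl12 and Mrpl20 fell with IA. The product of Mrpl12 is related to L7/L12, the flexible stalk proteins that recruit translation factors, and the human protein has been reported to bind mitochondrial RNA polymerase (chr11:120484613-120489065, plus strand; ENSMUSG00000039640). Mrpl12 had 15.3, 15.6 and 16.9 CPM in IA, 16.2, 17.5 and 20.3 in MetSA, 19.4, 19.1 and 20.8 in MA, and 23.6, 17.9 and 20.1 in M. All IA libraries lay below all MA and M libraries. On the log2 scale it was lower with IA than with M (-0.36, adjusted p = 0.0104) and than with MA (-0.31, adjusted p = 0.0256). The first was lost without M replicate 1 (-0.25, adjusted p = 0.0819), the second without IA replicate 1 (-0.28), IA replicate 2 (-0.30) or MA replicate 3 (-0.27). Of the exon bases of Mrpl12, 13.1% overlap Gm16755 on the opposite strand. Mrpl20, for the relative of L20, which acts early in assembly of the bacterial large subunit, averaged 12.3 ± 0.92 CPM in IA and 16.0 ± 1.1 CPM in M, a log2 fold change of -0.38 (adjusted p = 0.0141), lost without IA replicate 1 (-0.32) or M replicate 2 (-0.33). Smaller falls were called for Mrpl37 (-0.20), whose product is specific to mitochondria, and, named after their values were seen, for Mrps14 (-0.30), Mrpl51 (-0.26) and Mrpl28 (-0.20). The adjusted p of these 4 lay between 0.0348 and 0.0365, and each was lost without IA replicate 1, IA replicate 3, M replicate 2 or M replicate 3 and further libraries, at log2 fold changes from -0.31 to -0.16. Mrpl37, Mrpl28 and Mrpl51 also lost it with DESeq2's size factors and with no filter on low counts.

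The other large-subunit genes of known function did not pass the test with IA. The log2 fold change was 0.06 for Mrpl3, -0.18 for Mrpl4 (adjusted p = 0.0535), 0.07 for Mrpl10 and -0.21 for Mrpl11, whose products relate to the bacterial core proteins L3 and L4 and to the stalk base proteins L10 and L11. Of the exon bases of Mrpl10, 14.1% overlap another gene. Mrpl45, whose product ties the ribosome to the inner membrane, had 29.4, 30.0 and 26.9 CPM in IA and 25.2, 26.5 and 26.7 CPM in M, a log2 fold change of 0.14 with a 95% interval of -0.03 to 0.30. Mrpl58, for the built-in peptidyl-tRNA hydrolase that rescues stalled ribosomes, had 6.41, 8.25 and 7.07 CPM in IA and 7.27, 7.58 and 9.48 CPM in M (interval -0.45 to 0.13). Mrpl36 averaged 12.7 ± 0.92 CPM in IA and 13.3 ± 2.0 CPM in M. Mrps30, whose product lies in the large subunit, averaged 14.0 ± 0.95 CPM in IA and 11.7 ± 0.51 CPM in M, a value of 0.26 that missed the threshold (adjusted p = 0.0661).

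In the small subunit, Mrps12, for the relative of the decoding-centre protein S12, had 8.28, 6.36 and 6.67 CPM in IA and 8.66, 8.17 and 8.54 CPM in M, and did not pass (-0.25, adjusted p = 0.129). The values for IA against M were -0.11 for Mrps5, -0.16 for Mrps6, -0.02 for Mrps7, 0.20 for Mrps22 and 0.11 for Mrps34, and none of these passed. The 3 genes related to bacterial S18 code for proteins at different sites of the particle, and none passed against M with IA: Mrps18a gave 0.23 (adjusted p = 0.0973), Mrps18b -0.24 and Mrps18c 0.09. Mrps18c was the least precise of them, with 10.5, 10.7 and 15.6 CPM in IA, 18.8, 12.0 and 8.72 in MetSA, 9.75, 11.2 and 12.3 in MA, and 8.78, 12.6 and 13.1 in M. Of the exon bases of Mrps34, 63.4% overlap Mapk8ip3. Another gene overlaps 30.5% of those of Mrps18b, 23.2% of Mrps18c and 19.9% of Mrps6, so the values of these 4 genes are uncertain. Mrps36 had 4.45, 5.63 and 6.05 CPM in IA, 7.97, 7.06 and 6.91 in MetSA, 5.91, 7.33 and 6.27 in MA, and 6.59, 7.33 and 6.65 in M. All IA libraries lay below all M libraries for Mrps36, but the difference of -0.35 missed the threshold (adjusted p = 0.0571).

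With MetSA, 3 of 78 members were called against M, 2 higher and 1 lower, where 21.2% of all genes were called, 12.6% higher and 8.53% lower. The median log2 fold change was 0.04 over members and -0.01 over all genes, and the member median turned negative under upper-quartile scaling (-0.02, with 0 calls higher and 3 lower) and with no scaling beyond library totals (-0.08, with 0 higher and 7 lower). Of all genes, 23.2% and 28.3% were called with these scalings. None of the 26 small-subunit members was called by edgeR with TMM or by DESeq2, with 1 at an unadjusted p under 0.05 in edgeR, while edgeR with no scaling called 3 lower. Intervals lay within 1.5-fold for 75 of 78 members. Mrpl13, for the relative of L13, had 22.8, 19.9 and 20.8 CPM in MetSA, 21.2, 20.2 and 21.7 in MA and 16.4, 17.4 and 17.8 in M, with all MetSA and MA libraries above all M libraries. It rose with MetSA by 0.30 (SE 0.09, adjusted p = 0.020) and with MA by 0.29 (SE 0.09, adjusted p = 0.0245), and IA gave 0.23 (adjusted p = 0.0517). The MetSA call of Mrpl13 was lost with upper-quartile scaling, with no scaling, and without M replicate 1 (0.27) or MetSA replicate 1 (0.24), and the MA call without M replicate 1 (0.26), M replicate 2 (0.30), MA replicate 1 (0.28) or MA replicate 3 (0.26). Mrpl37 fell by 0.21 on the log2 scale with MetSA (adjusted p = 0.0498), a call kept in 1 of the 12 omissions, that of MetSA replicate 3, at values of -0.22 to -0.18 in the others. Mrpl22, named after its values were seen and related to the exit tunnel protein L22, had 9.72, 8.12 and 6.50 CPM in MetSA and 5.26, 6.20 and 6.52 CPM in M, a log2 fold change of 0.44 (adjusted p = 0.0414) with overlapping groups. It was lost with upper-quartile scaling, with no scaling and in 8 of the 12 omissions, at 0.29 without MetSA replicate 1, at 0.35 without M replicate 1 and at 0.43 to 0.46 in the others. Another annotated gene shares 12.6% of the sequence of Mrpl22 over stretches of 100 bases. Without MetSA replicate 3, 5 members were called, 4 higher and 1 lower, where 20.6% of all genes were. Without M replicate 1 or MetSA replicate 1 none was, where 14.6% and 16.4% of all genes were. The count was 1 without IA replicate 2, MA replicate 1, MA replicate 2 or MetSA replicate 2, where 16.4% to 19.7% of all genes were called.

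With MA, 2 of 78 members were called against M, Mrpl1 and Mrpl13, both higher, where 20.3% of all genes were called, 10.1% higher and 10.1% lower. The median log2 fold change was -0.05 over members and -0.02 over all genes, and the intervals of 71 of 78 lay within 1.5-fold. At an unadjusted p under 0.05 there were 5 members, and DESeq2 called 3, where it called 22.2% of all genes. None of the 26 small-subunit members was called by either tool, and none had an unadjusted p under 0.05. No member was called when M replicate 1 or MA replicate 3 was left out, where 16.2% and 16.1% of all genes were. The count was 2 without IA replicate 3 or MetSA replicate 3, where 18.6% and 22% of all genes were called. It was 1 in each other omission, where 14.5% to 20% of all genes were called.

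Over the 3 comparisons with M, which share the same M libraries, 16 of 78 members were called with at least 1 compound and 3 with at least 2, namely Mrpl1, Mrpl13 and Mrpl37. Of all genes tested, 45.2% were called with at least 1 compound and 23.3% with at least 2, against 20.5% and 3.85% of members. Over all 6 comparisons with TMM scaling, 19 members (24.4%) were called at least once, where 52.5% of all genes were, and 59 in none. With no scaling beyond library totals the members called at least once became 43 (55.1%, where 64.5% of all genes were). No member reached 2-fold in any of the 6 with TMM, which 19.7% of all genes did, called or not.

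Comparing the compounds at the same dose and time gave 6 comparisons in all with those against M. IA and MetSA differed in 1 member of 78, Mrps28, where 6.12% of all genes were called, 3.97% higher with IA and 2.15% lower. The median log2 fold change for IA against MetSA was -0.07 over members and -0.02 over all genes, and 71 of 78 intervals lay within 1.5-fold in either direction. At an unadjusted p under 0.05 there were 15 members, and DESeq2 called 4, where it called 9.55% of all genes. edgeR called 2 without M replicate 1, M replicate 3 or MetSA replicate 3, where 3.49% to 6.74% of all genes were called. The count was 0 when IA replicate 1, IA replicate 2, MetSA replicate 1 or MetSA replicate 2 was left out, where 2.94% to 6.59% of all genes were called. For several members called with IA against M the direct difference was small or uncertain: 0.00 for Mrpl27 (interval -0.22 to 0.22), 0.00 for Mrpl37 (-0.15 to 0.15), 0.16 for Mrpl44 (-0.02 to 0.35) and -0.18 for Mrpl12 (-0.40 to 0.04).

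IA and MA differed in 9 members, 4 higher with IA and 5 lower, where 34.6% of all genes were called, 17.8% higher and 16.8% lower, and the median was -0.04 over members and -0.03 over all genes. Mrpl41, for a large-subunit protein specific to mitochondria, had 5.62, 4.60 and 5.11 CPM in IA, 5.72, 5.44 and 6.67 in MetSA, 8.94, 6.34 and 8.27 in MA, and 5.70, 6.63 and 6.86 in M. All MA libraries lay above all IA libraries. The log2 fold change of Mrpl41 was -0.62 for IA against MA (SE 0.15, adjusted p = 0.00258), a call that held in each of the 22 alternatives. Besides Mrpl44 and Mrpl27, the members higher with IA were Mrps18a (0.29, adjusted p = 0.0403) and, named after its values were seen, Mrps11 (0.37, adjusted p = 0.0271). Mrps18a lost the call without MA replicate 2 (0.17), IA replicate 1 (0.29), IA replicate 2 (0.30), IA replicate 3 (0.28) or M replicate 2 (0.29), and Mrps11 without IA replicate 1 (0.37), IA replicate 2 (0.34), MA replicate 1 (0.36) or MA replicate 2 (0.31). Both also lost it with upper-quartile scaling and with no scaling. Mrps28, Mrps25, Mrpl12 and Mrpl37 were lower with IA, the last by 0.21 on the log2 scale (adjusted p = 0.0275), lost without IA replicate 1 (-0.20), IA replicate 2 (-0.19), MA replicate 2 (-0.21) or MA replicate 3 (-0.18). The count of 9 became 3 without IA replicate 2, 5 without IA replicate 1 and 6 without MA replicate 2, where 28.9%, 28.8% and 28.7% of all genes were called. Upper-quartile scaling gave 2 higher and 9 lower (14.1%, where 37.3% of all genes were called). No scaling beyond library totals gave 0 higher and 24 lower (30.8%, where 45.3% of all genes were called).

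MetSA and MA differed in 3 members, Mrpl27 higher with MetSA and Mrpl41 and Mrpl37 lower, where 26.4% of all genes were called, 14.7% higher and 11.6% lower. The median was 0.06 over members and -0.01 over all genes, and it became -0.01 over members with no scaling beyond library totals. Mrpl37 had 24.4, 23.8 and 26.5 CPM in MetSA and 27.5, 29.1 and 30.2 CPM in MA without overlap, -0.22 on the log2 scale (SE 0.07, adjusted p = 0.0329). Mrpl41 gave -0.40 with overlapping groups (adjusted p = 0.049), kept in 3 of the 12 omissions and lowest in size without MA replicate 1 (-0.30). Mrpl27 lost its call with no scaling and without MA replicate 1 (0.30), MA replicate 2 (0.35), MetSA replicate 1 (0.32) or MetSA replicate 2 (0.32), and Mrpl37 with no filter on low counts, in a fit of only the groups compared and without MetSA replicate 1 (-0.20), MetSA replicate 2 (-0.19), MA replicate 2 (-0.21) or MA replicate 3 (-0.18). Without MetSA replicate 3, 8 members were called, 6 higher and 2 lower, where 26.3% of all genes were. Without MetSA replicate 1 none was, where 21.4% of all genes were. Without MetSA replicate 2 or MA replicate 2 the count was 1, where 22.1% and 21.2% of all genes were called.

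The members also varied together between libraries of the same group. The first principal component of the 78 members held 32.8% of their variance and spread MetSA replicate 1 (1.52) far from MetSA replicate 3 (-0.75), and M replicate 3 (1.08) from M replicate 1 (-0.78). IA libraries lay between -1.31 and -0.38 on it and MA libraries between -0.20 and 0.43. Its highest loadings were those of Mrps33 (0.30), Mrps16 (0.30), Mrps28 (0.28), Mrps18c (0.26) and Mrpl52 (0.25), and its lowest that of Mrpl1 (-0.10). The lowest count in any library was 201 for Mrps33, 268 for Mrps16, 93 for Mrps28, 436 for Mrps18c and 133 for Mrpl52. For Mrpl1 it was 924. The part of low counts in the loadings was not tested. Across the 78 genes, which share the same libraries, Spearman's rho between loading and transcript length was -0.36. The second component held 21.2% and placed all IA libraries, at -0.88 to -0.75, below all M libraries, at 0.31 to 1.14, and all MA libraries, at 0.27 to 0.43. MetSA was split on it, with -0.84 and -0.43 in replicates 1 and 2 and 0.63 in replicate 3. In a repeat added after the data were seen, a length trend was removed from each library. IA against M then gave 16 called members (20.5%, where 37.2% of all genes were called). Of these, 9 were higher and 7 lower, against 5 higher and 9 lower in the main test, so the direction with more calls changed.

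**Figure D4:**
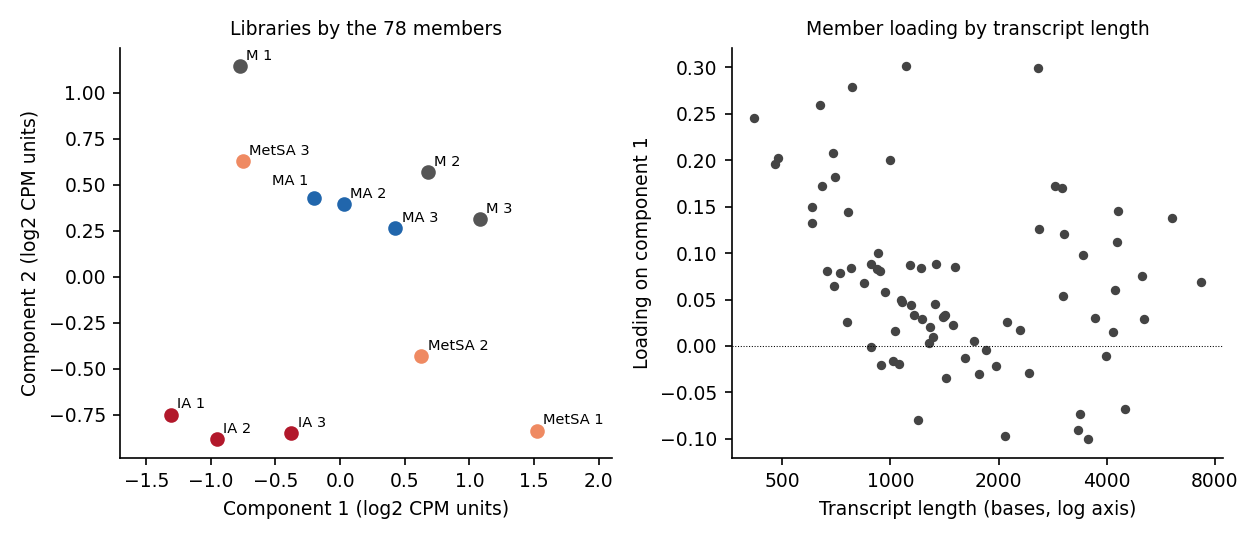
Left, the 12 libraries on the first and second principal components of log2 CPM of the 78 members; the IA libraries lie at -0.88 to -0.75 on component 2 and the M libraries at 0.31 to 1.14. Right, the loading of each member on component 1 against transcript length in bases (log axis); high loadings are found mostly at short lengths, with a Spearman's rho of -0.36 over 78 genes.

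The ribosomal proteins work with a set of nuclear-encoded partners, each taken from a list made for this comparison. The list of 6 genes with other symbols holds 5 for proteins of the particle and Lactb, for a filament-forming mitochondrial protein once numbered among them. None of the 6 was called in any comparison by edgeR with TMM or by DESeq2, and none had an unadjusted p under 0.05. With no scaling, 3 of the 5, set apart from Lactb after the values were seen, were lower with IA and 1 with MetSA. Of all genes, 48.4% and 28.3% were then called in either direction. Dap3, a GTP-binding small-subunit protein, had 21.4, 21.2 and 21.8 CPM in IA, 24.6, 20.5 and 22.6 in MetSA, 25.5, 21.5 and 21.4 in MA, and 22.9, 20.6 and 23.6 in M. Among 16 translation factors tested, IA against M called 1 higher and 2 lower, where 17.9% of all genes were higher and 17.3% lower. Tufm, the elongation factor that delivers tRNA, had 35.1, 37.7 and 35.9 CPM in IA and 42.9, 44.1 and 46.5 CPM in M and fell by 0.30 on the log2 scale (adjusted p = 0.00209). Gfm1, the translocation factor, fell by 0.22 (adjusted p = 0.012), and Mtrf1, of the release factor family, rose by 0.42 (adjusted p = 0.016). With no scaling beyond library totals, 12 of the 16 were lower with IA and 0 higher, and upper-quartile scaling gave 5 lower and 0 higher. The shares of all genes called in either direction were 48.4% and 39.0%. MetSA and MA against M called no translation factor by edgeR with TMM, with 3 at an unadjusted p under 0.05 for each, and DESeq2 called 0 for MetSA and 2, both higher, for MA. For MetSA and MA, edgeR called 21.2% and 20.3% of all genes and DESeq2 23.4% and 22.2%. For MetSA, edgeR called 3 lower with upper-quartile scaling, 5 lower with no scaling and 1 lower without MetSA replicate 3, an omission that gave 2 higher for MA.

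Of 20 mitochondrial tRNA-charging enzymes, 3 were lower with IA, 3 were lower with MetSA, and with MA 1 was higher and 1 lower. Of all genes, 17.3% were lower with IA and 8.53% with MetSA, and with MA 10.1% were higher and 10.1% lower. With no scaling, 9 were lower with IA and 7 with MetSA, when 48.4% and 28.3% of all genes were called in either direction. Without MetSA replicate 3, 2 were lower with MetSA, where 20.6% of all genes were called in either direction. Mars2, which charges tRNA with methionine, had 6.35, 5.23 and 4.81 CPM in IA, 6.38, 5.85 and 6.75 in MetSA, 7.12, 6.61 and 6.77 in MA, and 9.59, 11.4 and 7.30 in M. It fell against M with IA by 0.79, with MetSA by 0.57 and with MA by 0.46 on the log2 scale (adjusted p = 0.000412, 0.00904 and 0.0329). Among the other enzymes, Cars2 fell with IA (-0.46), Ears2 fell with MetSA (-0.49) and Nars2 rose with MA (0.60). Nars2 had 7.86, 6.53 and 7.41 CPM in MA and 4.79, 4.91 and 4.64 CPM in M.

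Of 28 assembly factors of the particle, 2 were higher and 2 lower with IA, 1 higher and 2 lower with MetSA, and 2 higher and 1 lower with MA. Of all genes, 17.9% were higher and 17.3% lower with IA, 12.6% and 8.53% with MetSA, and 10.1% and 10.1% with MA. Without scaling the counts of the list became 0 and 14, 0 and 6, and 0 and 1. Then 48.4%, 28.3% and 21.3% of all genes were called in either direction. Without MetSA replicate 3, MetSA gave 0 higher and 2 lower, where 20.6% of all genes were called in either direction. C1qbp, a matrix protein needed for mitochondrial translation in mice, had 19.5, 20.9 and 20.0 CPM in IA, 22.6, 21.1 and 29.8 in MetSA, 28.4, 25.8 and 31.8 in MA, and 32.8, 31.4 and 31.9 in M. It fell by 0.67 with IA (adjusted p = 6.85e-05) and by 0.39 with MetSA (adjusted p = 0.0128) on the log2 scale. Ddx28, a helicase of large-subunit assembly, rose by 0.31 with IA and 0.29 with MetSA. Rbfa, a maturation factor of the small subunit, had 13.0, 13.4 and 12.2 CPM in MA and 17.5, 17.1 and 19.8 CPM in M and fell by 0.49 with MA (adjusted p = 0.000445). Of the other calls, Rcc1l fell (-0.38) and Nsun4 rose (0.30) with IA, Mettl17 fell with MetSA (-0.37), and Nsun4 (0.31) and Trub2 (0.25) rose with MA.

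Of 15 genes of mitochondrial transcription and RNA handling, Pnpt1 was called with IA and with MetSA and no other was with TMM scaling. The shares of all genes called were 35.2% with IA, 21.2% with MetSA and 20.3% with MA, and 48.4%, 28.3% and 21.3% with no scaling. With no scaling, IA gave 1 higher and 4 lower and MetSA 1 higher and 3 lower, upper-quartile scaling gave 1 higher and 2 lower for IA, and without MetSA replicate 3 the calls were 1 higher and 2 lower for IA and 1 of each for MetSA. With upper-quartile scaling 39.0% of all genes were called for IA, and in the omission 36.8% for IA and 20.6% for MetSA. Pnpt1, the mitochondrial RNA-degrading phosphorylase and also a known interferon-induced gene, had 78.1, 82.7 and 77.2 CPM in IA, 66.3, 56.8 and 56.5 in MetSA, 33.2, 32.5 and 33.7 in MA, and 33.4, 39.6 and 38.2 in M. It rose by 1.10 with IA (SE 0.08, adjusted p = 1.13e-09) and by 0.69 with MetSA (adjusted p = 1.28e-06). Of 11 tested regulators of nuclear mitochondrial genes, IA called 2 higher and 1 lower, MetSA 1 of each and MA 1 lower. With no scaling these became 1 higher and 4 lower, 1 and 2, and 0 and 2, and without MetSA replicate 3 MetSA kept a count of 1 of each and MA had 2 lower. Myc, a transcription factor that promotes growth and mitochondrial gene expression, had 11.9, 11.5 and 10.3 CPM in IA, 15.2, 14.8 and 16.9 in MetSA, 18.6, 18 and 17.1 in MA, and 32.9, 27.4 and 26.3 in M. It fell by 1.36 with IA, 0.88 with MetSA and 0.69 with MA on the log2 scale (adjusted p = 2.28e-09, 1.28e-06 and 2.35e-05). Its partner gene Max rose by 0.55 with IA and 0.43 with MetSA, and Perm1 rose by 0.32 with IA. Nrf1 and the genes for the GABP subunits were not among the calls against M.

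**Figure D5:**
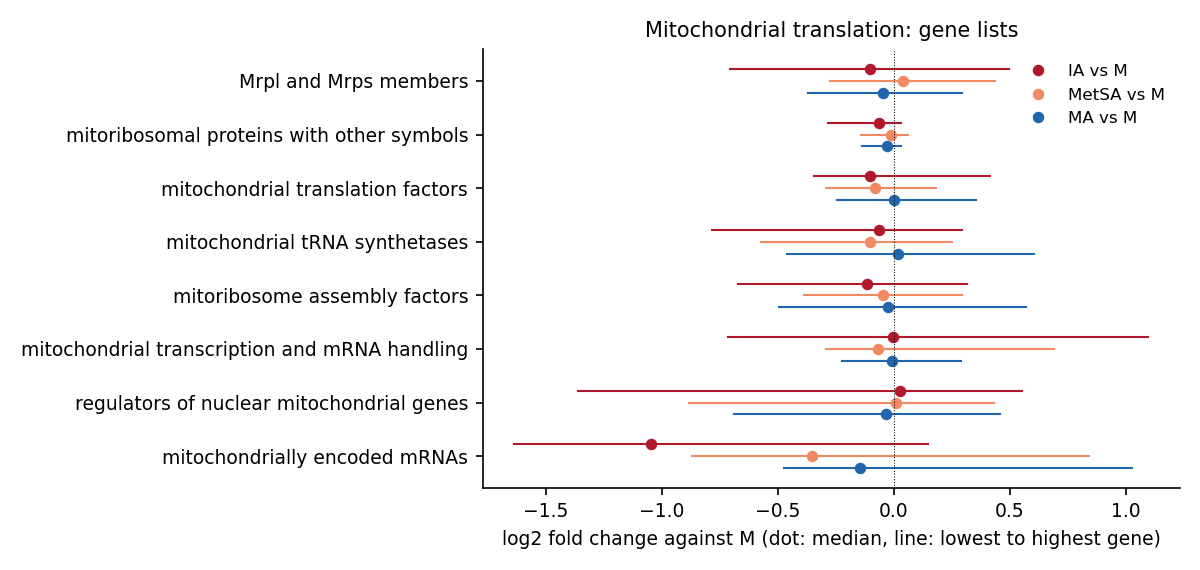
Log2 fold change against M (x axis) for the members and for 7 lists of mitochondrial translation genes (rows). Dots are medians and lines run from the lowest to the highest gene, with IA, MetSA and MA from top to bottom in each row; the member medians are -0.10, 0.04 and -0.05, and the mitochondrially encoded mRNAs are at -1.05, -0.35 and -0.15.

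The mRNAs that these ribosomes translate come from the mitochondrial genome. Of 12 mitochondrially encoded mRNAs tested, 6 were called lower with IA and 3 with MetSA, where 17.3% and 8.53% of all genes were. With MA none was called by edgeR or DESeq2, with 1 at an unadjusted p under 0.05. Without MetSA replicate 3, when 13 passed the filter, 6 were lower with IA, 6 with MetSA and 2 with MA. The median log2 fold change was -1.05 with IA, -0.35 with MetSA and -0.15 with MA, beside member medians of -0.10, 0.04 and -0.05 in the same comparisons. mt-Cytb, for cytochrome b of complex III, had 340.0, 557 and 432 CPM in IA, 588, 651 and 1020 in MetSA, 1010, 946 and 1020 in MA, and 1350, 1300 and 1470 in M. It fell by 1.63 with IA and 0.87 with MetSA on the log2 scale (adjusted p = 0.000524 and 0.0254). mt-Nd2 fell by 1.35 with IA and 0.86 with MetSA, and mt-Nd1 by 1.18 and 0.61. The most abundant of the 12, mt-Co1, for a subunit of cytochrome c oxidase and named after its values were seen, had 5350, 6000 and 6220 CPM in IA, 5230, 5570 and 8240 in MetSA, 5940, 6220 and 6200 in MA, and 6030, 5610 and 6590 in M. The groups overlapped, and its log2 fold change was -0.05 with IA (95% interval -0.38 to 0.28, adjusted p = 0.819) and 0.06 with MetSA (-0.27 to 0.39). MetSA replicate 3, which stood apart by its share of mitochondrially encoded counts, was the highest library of its group for mt-Cytb. The 12 genes were measured very unevenly, with up to 422106 counts in a library for mt-Co1 and at most 203 counts in any library for mt-Co3, 177 for mt-Co2 and 31 for mt-Nd3, and nuclear copies of mitochondrial sequence can make counts of this list uncertain.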

How the data were processed

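Poly(A) RNA of 12 macrophage libraries was analysed. The authors deposited whole-number counts per gene, not normalised. STAR, featureCounts and mm10 are named in the submitters' processing notes; of their versions, annotation and strand setting, nothing is given in the sources used here. Of counts from 1 to 9, 66.1% were even, against 50.9% of counts of 1000 or more, so mates may have been counted separately, and the tests were repeated on counts divided by 2. Groups came from the sample titles. Within groups, no pair of replicates was alike to within sampling noise (chi-square over degrees of freedom, 9.14 to 55.6).

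Genes were kept by edgeR's filterByExpr (14113 genes, 99.98% of counts), scaled by TMM and tested by edgeR's quasi-likelihood test in 1 robust fit to the 12 libraries, which left 8 residual degrees of freedom. In each of 6 comparisons, a Benjamini-Hochberg adjusted p below 0.05 was a call. CPM values are TMM-scaled, SDs are over 3 libraries, and 95% intervals come from the fit. Exon overlap and shared stretches of 100 bases were taken from GENCODE M21 on GRCm38 (mm10); 19 members had 10% or more of either. Promoters are RefSeq windows. The same-numbered replicates of different groups were not treated as pairs in the main fit. Correlations of their deviations from group means were low but positive in all 18 pairs (0.0122 to 0.169), and 2 exceeded 0.1. The stromal marker Col1a1 was highest in replicate 1 of each group, at 9.11 CPM in IA, 14 in MetSA, 14.1 in MA and 16 in M. Whether same-numbered replicates share an origin is not stated in the labels, and a repeat with replicate number as a block is given below.

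Members and lists were chosen with earlier results of these data known. Genes named are members of known function, the members with the largest called changes at 10 CPM or more (6 per compound against M, 4 per pair of compounds), those called against the member median, the 3 highest and 3 lowest per kb, and up to 3 called genes per list; others are marked where named, and a listed gene that the rule would name is not reported here. Alternatives were other scalings, filters, DESeq2, only the groups compared, a replicate block and omission of each library. DESeq2 1.42.0 and edgeR 4.0.16 ran under R 4.3.3. The repeats with a length trend removed, and over members without overlapping or shared sequence, were added after the data were seen.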

Additional observations from a re-analysis of the deposited data

How the results depend on the processing

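Of the alternatives run, scaling moved the count for IA against M the most. For IA against M, TMM called 14 members with a median log2 fold change of -0.10. Upper-quartile scaling called 20, 1 higher and 19 lower (median -0.19), and no scaling beyond library totals called 41, 1 higher and 40 lower (median -0.29), or 52.6% of members where 48.4% of all genes were called, while the median of all genes was -0.12 and -0.22, against -0.03 with TMM, and 34.8% and 21.6% of all called genes were higher, against 50.9% with TMM. With no scaling, MetSA against M gave 7 calls (8.97%, where 28.3% of all genes were called, median -0.0755). IA against MetSA gave 8 (10.3%, where 8.51% of all genes were called, median -0.15). IA against MA gave 24 (30.8%, where 45.3% of all genes were called, median -0.19), and the median of MetSA against MA was -0.0149. Upper-quartile scaling gave 1 call for MA against M, where 20.2% of all genes were called, and 4 for IA against MetSA, where 6.21% were. Its median for IA against MA was -0.11. IA against MetSA, with 1 call, gave 4 with no filter on low counts, 4 with DESeq2, 2 with the length trend removed and 0 in a fit of only the groups compared. The shares of all genes called were then 6.73%, 9.55%, 7.01% and 4.28%. Fits of only the groups compared gave 1 call for MA against M, 1 for MetSA against M, 14 for IA against MA and 1 for MetSA against MA. In these, 21.3%, 16.9%, 40.0% and 25.4% of all genes were called. With the replicate number as a block, IA against MetSA gave 5 calls and IA against M 16; the numbers are not shown to pair the samples. Leaving out each library in turn, calls ran from 6 to 18 for IA against M, 0 to 2 for MA against M, 0 to 5 for MetSA against M, 0 to 2 for IA against MetSA, 3 to 12 for IA against MA and 0 to 8 for MetSA against MA. Medians ran from -0.113 to -0.0246, -0.08 to 0.00, -0.02 to 0.07, -0.09 to -0.04, -0.06 to 0.00 and 0.02 to 0.10 in the same order. No named member that was called changed sign. Members drew as few as 93 counts in a library, and the median SE for IA against M on the log2 scale was 0.108 over members and 0.109 over all genes, at n = 3 per group. Of the 59 members without 10% overlap or shared sequence, 11 (18.6%) were called in IA against M, where 35.2% of all genes were.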
